A study of Mus musculus with 5 samples.

Results

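The aminoacyl-tRNA synthetase genes were followed in RNA from samples labelled as CD4+ T cells of the spleen and of MC38 tumors. A row of the deposited tables was taken as a member when its symbol was a single amino acid letter followed by ars, ars1 or ars2, or was Eprs, Farsa or Farsb, and Lars2 was left out. The rule found 35 of 19726 listed genes. They comprise 20 genes of cytosolic enzymes and 15 genes of mitochondrial enzymes, the latter being those whose symbol ends in 2. The rule used symbols only and no measured value. Mars2, the mitochondrial methionyl gene, was not analysed here. There were 3 spleen libraries (replicates 1, 2 and 3) and 2 tumor libraries (replicates 2 and 3), all from mice labelled wild-type and C57/Bl6j, at an age of 7 weeks. The mouse colon carcinoma line MC38 is commonly grown as a transplanted tumor. The labels give 300000 cells for each RNA extraction. They do not say whether replicates came from separate animals, so each p-value below reflects only how these libraries vary among themselves, and that variation may be technical.

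Aminoacyl-tRNA synthetases attach each amino acid to its tRNA and so set the meaning of the genetic code in protein synthesis. Most amino acids have a cytosolic and a separate mitochondrial enzyme, both encoded in the nucleus. The mitochondrial enzymes serve the translation of the few proteins that mitochondrial DNA encodes. Gars and Kars each encode the glycyl or lysyl enzyme of both compartments, and Eprs encodes a fused glutamyl and prolyl enzyme. Farsa and Farsb encode the subunits of the cytosolic phenylalanyl enzyme. When amino acids are short or the endoplasmic reticulum is stressed, the transcription factor ATF4 is known to induce many of the cytosolic genes. Activated lymphocytes are known to raise protein synthesis as they grow.

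Levels are given as TPM, a transcript abundance corrected for length, so that genes can be compared within a library. The labelled cell type was checked against its markers. Cd4 stood at 97.7 to 131 TPM in spleen and at 26.8 and 27.2 TPM in tumor, and all 12 of 12 T cell identity genes were lower in both tumor libraries than in any spleen library. Their summed level lay between 996 and 1318 TPM in the spleen libraries against 249 and 318 TPM in the tumor libraries, with no marker at 0. All 16 of 16 macrophage and monocyte markers were higher in both tumor libraries, summing to between 20.5 and 21.7 TPM in the spleen libraries against 5702 and 6242 TPM in the tumor libraries. The part of these other cells in the results below was not tested. In such bulk samples, fewer cells of a type and less RNA per cell cannot be told apart. The listed values made up 26.9% to 36.0% of the TPM scale in spleen and 56.9% to 59.6% in tumor, so each comparison is also given under other scalings of the libraries. As a background, the 95th percentile of 1092 olfactory receptor genes ranged from 10.3 to 15.5 TPM over the spleen libraries and was 7.60 and 10.5 TPM in the tumor libraries. Below this level in all 5 libraries lay 9 of the 15 mitochondrial and 0 of the 20 cytosolic genes. Counted by library, 12, 3 and 6 cytosolic genes lay below it in spleen replicates 1, 2 and 3. In tumor replicates 2 and 3 there were 0 and 2. Only 8 of the 20 cytosolic genes reached it in all 5 libraries. Read depth is unknown, so no counting interval is given.

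Cytosolic synthetase genes moved in both directions, with 3 large rises among them. In limma's test on log2(TPM + 1) at an adjusted p below 0.05, 9 of 20 rose and 2 fell, and 9 were not called. Among all 12979 tested genes 40.9% were called higher and 18.1% lower, so the share of rises among the cytosolic genes, 45.0%, was near that of all genes. Both tumor libraries lay above all 3 spleen libraries for 10 cytosolic genes and below them for 4, and 6 overlapped. Over all tested genes, 46.6% lay above and 23.8% below in this way. The median log2 change was 0.36 for the cytosolic genes and 0.23 for all tested genes.

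The arginyl, asparaginyl and alanyl genes rose most. Rars (chromosome 11, 35808381 to 35834506, GRCm38), which encodes the arginyl enzyme of the cytosol, was at 16.9, 22.7 and 16.4 TPM in spleen replicates 1, 2 and 3 and at 82.4 and 74.6 TPM in tumor replicates 2 and 3. Its mean was 4.20-fold higher in tumor, and the fitted log2 change was 2.03 with a standard error of 0.21 (limma adjusted p = 8.7e-12). Standard errors follow the ± sign in all log2 changes below. Nars (chromosome 18, 64499647 to 64516652), the asparaginyl gene, was at 12.5, 18.04 and 15.9 TPM in spleen and at 61.6 and 69.3 TPM in tumor. Its log2 change was 2.02 ± 0.21 (limma adjusted p = 9.8e-12). In both genes the lowest tumor library stood more than 3 times as high as the highest spleen library. Aars (chromosome 8, 111033144 to 111057664), the alanyl gene, was at 9.01, 8.67 and 10.4 TPM in spleen and at 29.2 and 26.9 TPM in tumor, a log2 change of 1.49 ± 0.21 (limma adjusted p = 1.9e-08). The tumor values again lay apart from those of spleen, which were within the olfactory background. Of the annotated exon bases of Aars, 14.3% also belong to Exosc6 on the same strand, and Exosc6 is listed at 0 in all 5 libraries, so reads of the 2 genes may not be told apart. Rars, Nars and Aars were called higher under each of the 19 alternatives, and they were the cytosolic genes called higher under all 7 scalings. Their log2 changes stood at percentiles 88.7, 88.7 and 82.7 of all tested genes, so many other genes rose more. In the spleen libraries these 3 genes held 12.5% to 13.0% of the summed cytosolic TPM, and in the tumor libraries 31.5% and 34.6%.

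The next rises were smaller and depended on the scaling. Wars (chromosome 12, 108860030 to 108894174), the tryptophanyl gene, which interferon gamma is known to induce, was at 6.01, 8.79 and 6.65 TPM in spleen and at 12.1 and 16.2 TPM in tumor (log2 change 0.89 ± 0.21, limma adjusted p = 0.00032). The spleen values of Wars were within the olfactory background. Kars (chromosome 8, 111993443 to 112011323), the lysyl gene of both compartments, was at 14.7, 19.9 and 16.0 TPM in spleen and at 29.2 and 30.4 TPM in tumor (0.79 ± 0.21, limma adjusted p = 0.0011). Gars (chromosome 6, 55038007 to 55079500), the glycyl gene of both compartments, was at 12.4, 20.4 and 15.8 TPM in spleen and at 24.8 and 26.1 TPM in tumor (0.65 ± 0.21, limma adjusted p = 0.0088). The tumor libraries lay above all spleen libraries for these 3 genes, by little for Gars. The call of Gars was lost with scaling by median ratios or on the upper quartile, against 1.5-fold and with a block on replicate number. It was also lost without spleen replicate 1, without tumor replicate 2 and without tumor replicate 3. The fused gene Eprs (chromosome 1, 185363044 to 185428360) was at 21.7, 27.0 and 23.2 TPM in spleen and at 37.5 and 42.8 TPM in tumor (0.72 ± 0.21, limma adjusted p = 0.0026). Cars, the cysteinyl gene, and Hars, the histidyl gene, also rose, with log2 changes of 0.79 and 0.62. With the libraries set to equal totals, the changes of Kars, Cars, Eprs, Gars and Hars turned negative, and that of Wars did so once Lars2 or the 20 most abundant genes were left out of the totals. Without tumor replicate 3 the calls of Gars, Cars, Eprs and Hars were lost. The median log2 change was then 0.37 for the cytosolic genes and 0.15 for all tested genes. The call of Hars was also lost by median ratios and without spleen replicate 3.

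Isoleucyl and valyl genes fell among the cytosolic members. Iars (chromosome 13, 49682100 to 49734267) was at 12.6, 16.9 and 16.1 TPM in spleen and at 10.1 and 9.97 TPM in tumor, a log2 change of -0.55 ± 0.21 (limma adjusted p = 0.022). Vars (chromosome 17, 35000987 to 35016322) was at 12.0, 22.3 and 15.4 TPM in spleen and at 10.7 and 10.01 TPM in tumor, a log2 change of -0.59 ± 0.22 (limma adjusted p = 0.019). The tumor libraries of both genes lay under the lowest spleen library. Neither call held without tumor replicate 2 or without tumor replicate 3; that of Iars was also lost without spleen replicate 3 and that of Vars without spleen replicate 2. Scaled on the T cell identity genes, both changes were positive. The 9 cytosolic genes without a call were Lars, Mars, Farsa, Qars, Sars, Dars, Tars, Yars and Farsb, with log2 changes from 0.39 for Lars down to -0.43 for Farsb. The aspartyl, glutaminyl and seryl genes among them were abundant in both tissues. Dars had a mean of 30.3 ± 4.22 TPM (SD) over the 3 spleen libraries, the highest spleen mean of any member, against 29.4 ± 1.27 TPM (SD) over the 2 tumor libraries. Plain levels with ± are such means with their SD over 3 spleen or 2 tumor libraries. Qars was at 27.8 ± 5.39 and 33.0 ± 8.23 TPM, and Sars at 26.6 ± 5.91 and 27.8 ± 0.033 TPM, with overlapping libraries in each case.

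**Figure D1:**
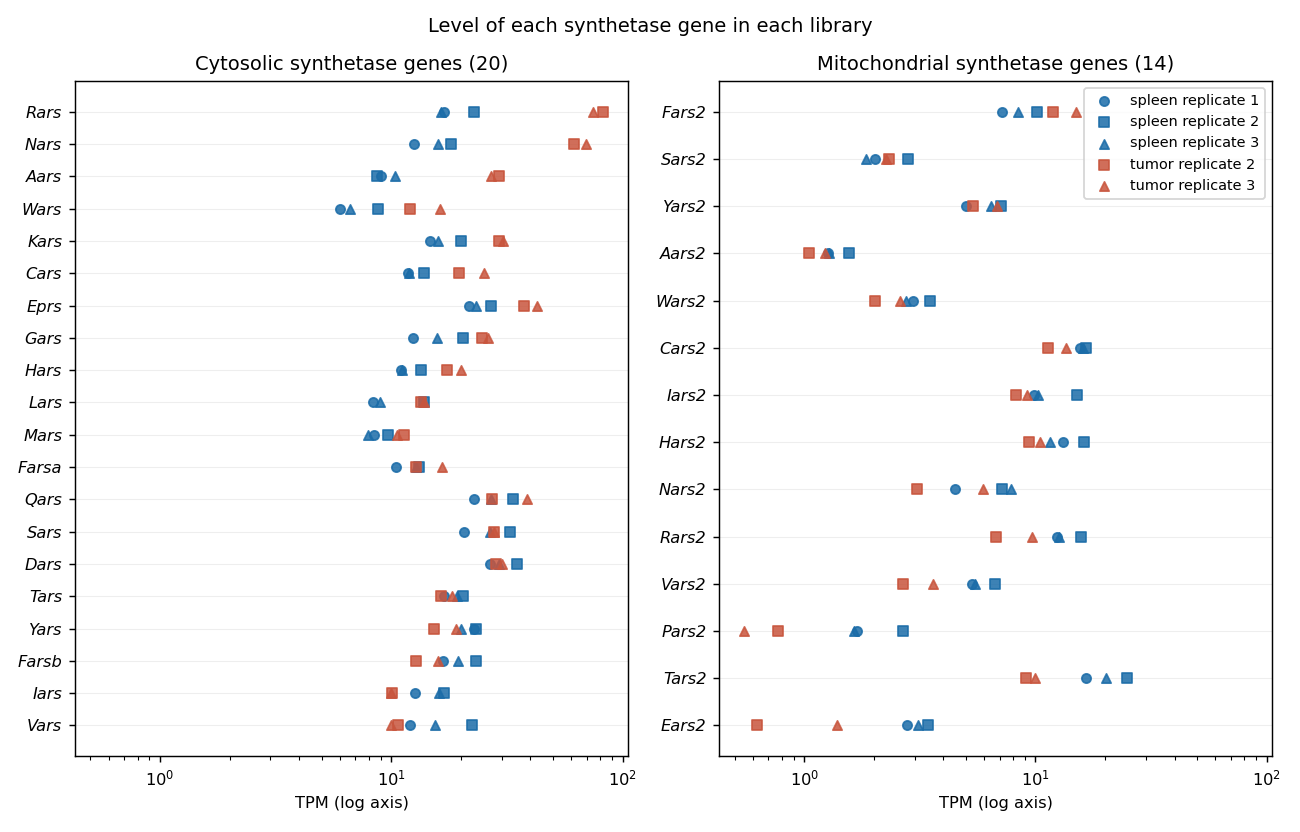
TPM (log axis) of the 20 cytosolic genes (left) and 14 of the 15 mitochondrial genes (right), with 1 point for each of the 3 spleen and 2 tumor libraries and genes ordered by log2 change. The tumor points of Rars, Nars and Aars stand far to the right of their spleen points, while those of Ears2, Tars2, Pars2, Vars2 and Rars2 stand to the left in TPM, while scaled on T cell identity genes their mean changes are positive.

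Mitochondrial synthetase genes were mostly lower in the tumor libraries in TPM. Scaled on the T cell identity genes 13 of the 15 rose, beside 95% of all tested genes. In limma's test 5 of 15 fell, 1 rose and 9 were not called, beside 18.1% lower and 40.9% higher calls over all tested genes. Both tumor libraries lay below all spleen libraries for 10 of the 15 genes and above them for 1, beside 23.8% and 46.6% of all tested genes. The median log2 change was -0.37, and 12 of the 15 changes were negative. The same libraries differed in the macrophage marker sum, as given above. Without tumor replicate 2 fewer mitochondrial genes, and fewer of all tested genes, were called lower. The median log2 change was then -0.24 for the mitochondrial genes and 0.27 for all tested genes.

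The threonyl gene was the most abundant mitochondrial member in spleen and fell by more than 1 on the log2 scale. Tars2 (chromosome 3, 95739976 to 95760206) was at 16.5, 24.8 and 20.2 TPM in spleen and at 9.08 and 9.998 TPM in tumor, a log2 change of -1.01 ± 0.21 (limma adjusted p = 5.7e-05). Rars2 (chromosome 4, 34614957 to 34660167), the mitochondrial arginyl gene, was at 12.4, 15.7 and 12.7 TPM in spleen and at 6.76 and 9.67 TPM in tumor (-0.67 ± 0.21, limma adjusted p = 0.0058). All tumor values of both genes lay below all spleen values. Without tumor replicate 2 the fall of Rars2 was not called. Rars2 lay within the olfactory background in 3 libraries, both tumor libraries among them, and Tars2 in 1, tumor replicate 3. The other 3 falls were at levels within the olfactory background in every library. Ears2 (chromosome 7, 122037213 to 122067263), the glutamyl gene, was at 2.79, 3.43 and 3.12 TPM in spleen and at 0.627 and 1.39 TPM in tumor (-1.06 ± 0.22, limma adjusted p = 5.5e-05). Pars2 (chromosome 4, 106651069 to 106655282), the prolyl gene, was at 1.70, 2.68 and 1.65 TPM in spleen and at 0.771 and 0.551 TPM in tumor (-0.84 ± 0.22, limma adjusted p = 0.0012). Both therefore stood near 1 TPM or below in tumor. Vars2 (chromosome 17, 35655634 to 35667592), the valyl gene, was at 5.33, 6.69 and 5.47 TPM in spleen and at 2.67 and 3.62 TPM in tumor (-0.72 ± 0.21, limma adjusted p = 0.0028), and its call was lost without tumor replicate 2. These 5 genes were called lower under 6 of the 7 scalings, and their changes were positive under the remaining scaling, that on the T cell identity genes.

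Fars2 (chromosome 13, 36117412 to 36726280), the mitochondrial phenylalanyl gene, was the 1 gene of its compartment called higher. It was at 7.14, 10.1 and 8.38 TPM in spleen and at 11.9 and 15.0 TPM in tumor, a log2 change of 0.60 ± 0.21 (limma adjusted p = 0.013). The spleen values of Fars2 were within the olfactory background. The tumor libraries lay above those of spleen, but the call was lost when spleen replicate 1 or 3 or tumor replicate 3 was left out, and the change was negative with equal totals. The mitochondrial genes without a call included Sars2, Yars2, Aars2, Wars2, Cars2, Iars2, Hars2 and Nars2, whose log2 changes ran from 0.04 for Sars2 to -0.46 for Nars2. Cars2, the cysteinyl gene, was the only mitochondrial member above the olfactory background in all 5 libraries, at 15.6, 16.6 and 16.1 TPM in spleen and 11.3 and 13.5 TPM in tumor. Its tumor values lay below all spleen values, with a log2 change of -0.36 ± 0.21 (limma adjusted p = 0.13). Iars2 shares 22.9% of its exon bases with Rab3gap2 on the other strand, and the sources used here do not give whether the counting used strand.

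**Figure D2:**
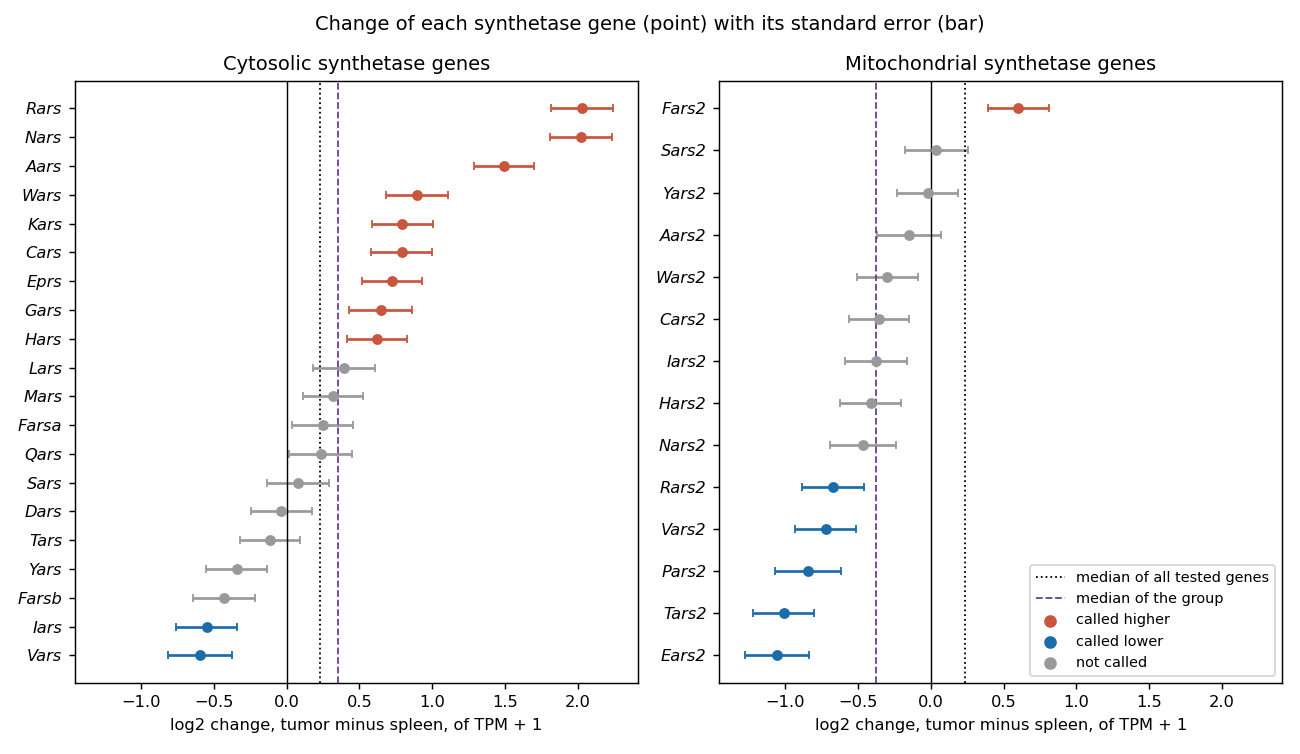
Log2 change, tumor minus spleen, of TPM + 1 for each gene drawn (point; 20 cytosolic and 14 of the 15 mitochondrial) with its standard error from limma (bar), colored by call. The dotted line is the median of all tested genes at 0.23, and the dashed lines are the group medians, 0.36 for the cytosolic and -0.37 for the mitochondrial genes; calls other than those of Rars, Nars and Aars changed under at least 1 other setting.

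The balance between the compartments can be read within each library, where no scaling between libraries enters. The 20 cytosolic genes had summed levels of 295, 397 and 330.2 TPM in the spleen libraries, in the order of replicates 1 to 3, and of 500.3 and 543 TPM in the tumor libraries, replicates 2 and 3. The 15 mitochondrial genes had sums of 104, 139 and 113 TPM in spleen and of 79.4 and 97.7 TPM in tumor. The ratio of the sums was therefore 2.84, 2.85 and 2.92 in spleen and 6.30 and 5.56 in tumor. The spleen libraries hardly differed from each other in this ratio, and the tumor libraries lay far above them. Of the 15 mitochondrial genes summed, 10 to 13 lay within the olfactory background in each library. Of the 20 cytosolic genes 0 to 12 did. Without Rars, Nars and Aars, the ratio of the other 17 cytosolic genes to the mitochondrial genes was 2.47 to 2.54 in spleen and 3.81 and 4.12 in tumor. No test is given for these sums, since the genes were chosen with earlier results of these data known; an exact permutation of 3 against 2 libraries has 10 splits and cannot give a two-sided p below 0.1. As a share of all listed TPM, the cytosolic sum was 0.110% to 0.113% in spleen and 0.0839% and 0.0953% in tumor, so that it was lower in tumor on this measure. The mitochondrial share was 0.0386% to 0.0387% in spleen and 0.0133% and 0.0172% in tumor.

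The shift between compartments was not shared by all amino acids. There are 16 pairs of a cytosolic and a mitochondrial gene for the same amino acid, in which Eprs and Fars2 each enter 2 times. The cytosolic gene had the higher log2 change in 11 pairs and the lower in 5. The largest gaps were those of the arginyl and asparaginyl pairs. The ratio of Rars to Rars2 was 1.37, 1.45 and 1.30 in spleen and 12.2 and 7.72 in tumor. The ratio of Nars to Nars2 was 2.80, 2.51 and 2.04 in spleen and 19.9 and 11.7 in tumor. Nars2 lay within the olfactory background in all 5 libraries, and Rars2 in 3, both tumor libraries among them. For arginine the 2 genes thus had similar levels in spleen and levels several-fold apart in tumor. The ratio of Eprs to Ears2 was 7.77, 7.88 and 7.44 in spleen and 59.8 and 30.8 in tumor, with Ears2 within the background. The cysteinyl and histidyl pairs changed order, and the threonyl pair went from near equal levels to a higher cytosolic level. The cytosolic to mitochondrial ratios of these 3 pairs were 0.738 to 0.836, 0.827 to 0.958 and 0.824 to 1.03 in spleen, and 1.73 to 1.87, 1.86 to 1.91 and 1.80 to 1.83 in tumor. Hars and Hars2 share 195 exon bases on opposite strands, 7.97% of those of Hars and 4.56% of those of Hars2. Cars2 shares 5.83% of its exon bases with Naxd on the other strand. The seryl pair had the smallest gap, with ratios of Sars to Sars2 of 10.2, 11.6 and 14.4 in spleen and 12.0 and 12.3 in tumor. The phenylalanyl enzyme went the other way. Farsb stood at 2.35, 2.29 and 2.32 times the level of Fars2 in spleen and at 1.08 and 1.07 times in tumor. The tyrosyl ratio and that of Farsa to Fars2 were also lower in both tumor libraries than in any spleen library. Elsewhere, Sars2 and Yars2 lay within the background in all 5 libraries, Hars2 and Fars2 in 3 each and Tars2 in 1. The gaps between pairs were not tested.

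**Figure D3:**
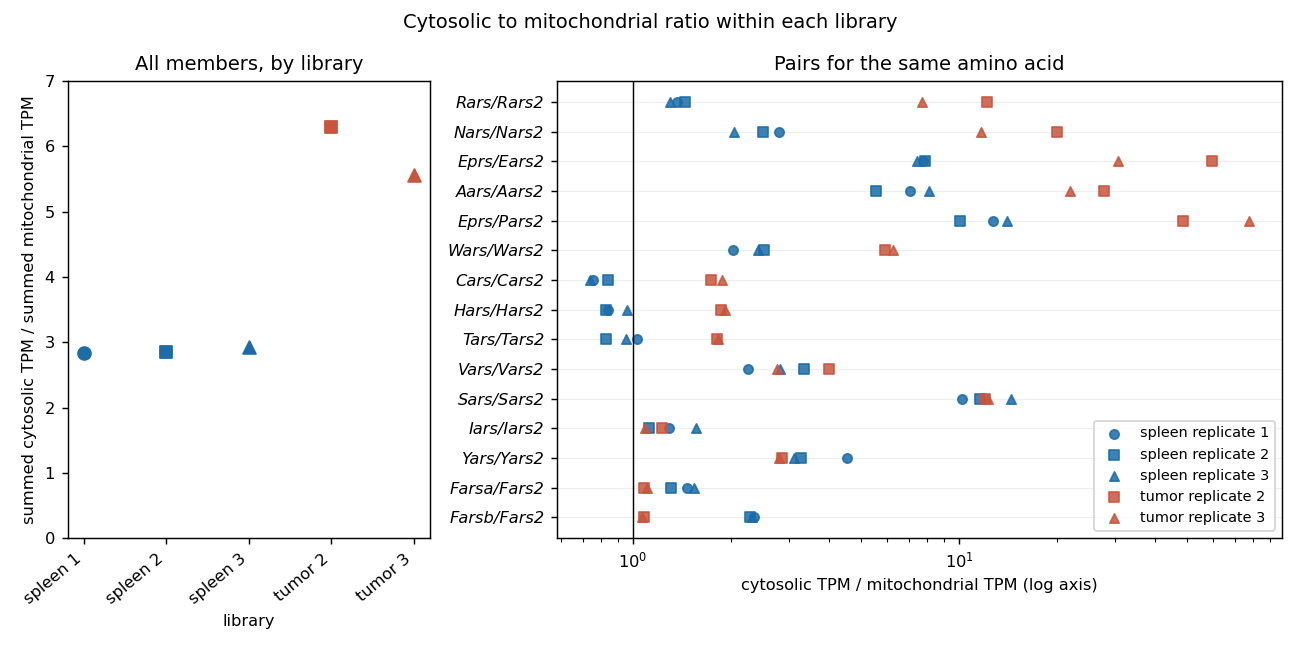
Left, the summed cytosolic TPM divided by the summed mitochondrial TPM in each of the 5 libraries. Right, the same ratio for 15 of the 16 pairs (log axis), ordered by the gap in log2 change; the tumor points lie above the spleen points in 9 of the pairs drawn, below them in 3 and among them in 3.

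How many members rose or fell depended on the scaling of the libraries, and the distance between the compartments did so less. The median log2 change of all tested genes was 0.23 in the deposited TPM. It was -0.06 by median ratios, -0.33 on the upper quartile, -0.56 with equal totals, -0.62 with equal totals without the top 20 genes and -0.64 without Lars2. It was 2.00 when scaled on the T cell identity genes. Relative to that median, the mitochondrial median lay lower by 0.61 in the deposited TPM, with differences from -0.67 to -0.61 over the 7 scalings. The cytosolic median lay 0.05 to 0.33 above it. This last difference was -0.14 when the filter was raised to a mean of 5 TPM, and the mitochondrial difference was then -0.89. With no filter the cytosolic difference was 0.39 and the mitochondrial -0.34, and with a pseudocount of 10 the mitochondrial difference was -0.28. By median ratios 7 cytosolic genes rose and 6 fell, and 0 mitochondrial genes rose and 10 fell, beside 33% and 30.3% of all tested genes. With equal totals 3 cytosolic genes rose and 11 fell, and 0 mitochondrial genes rose and 14 fell, beside 20.4% and 51.4%. Scaled on the T cell identity genes all 20 cytosolic and 13 mitochondrial genes rose and 0 fell, beside 95% and 0.878%. Rises made up 69.3% of all calls in the deposited TPM, 52.1% by median ratios, 28.4% with equal totals and 99.1% on T cell identity genes.

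**Figure D4:**
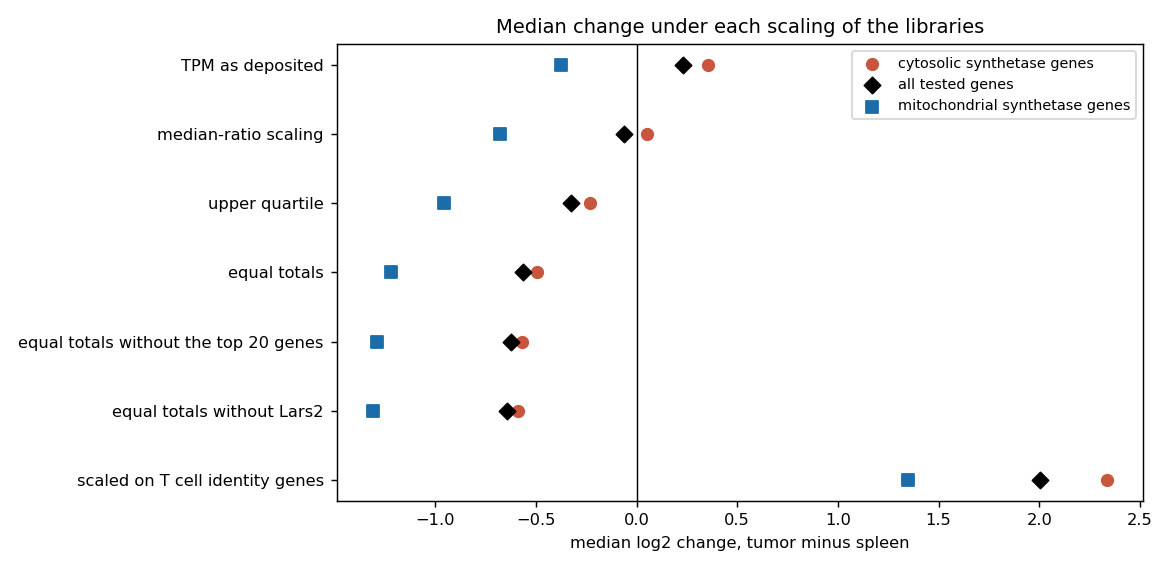
Median log2 change, tumor minus spleen, of the 20 cytosolic genes, the 15 mitochondrial genes and all tested genes under 7 scalings of the libraries. The mitochondrial median lies below that of all genes in each, while the sign of every median changes with the scaling.

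Groups of synthetases by role did not move as blocks. A complex of several cytosolic synthetases is held together by the scaffold proteins of Aimp1, Aimp2 and Eef1e1. Of its 8 enzyme genes 3 rose (Rars, Kars and Eprs), 1 fell (Iars) and 4 had no call, and their median log2 change was 0.36. Of the 3 scaffold genes only Aimp2 was called. It rose by 0.59 ± 0.21 on the log2 scale (limma adjusted p = 0.014), with means of 5.18 ± 0.91 TPM in spleen and 8.23 ± 0.33 TPM in tumor, and by median ratios it was not called. Of 13 cytosolic genes known as ATF4-induced 6 rose and 2 fell (median 0.39). Of the other 7, 3 rose and 0 fell (median 0.25). The largest rise of each list was of like size, 2.02 for Nars and 2.03 for Rars. By enzyme class, 4 of 17 class I genes rose and 5 fell, and 6 of 18 class II genes rose and 2 fell. These counts stand beside 40.9% rises and 18.1% falls over all tested genes, and no difference between the lists was tested.

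Of the genes of the amino acid response outside the synthetases, 14 of 22 tested (24 listed) rose in the deposited TPM and 2 fell, beside 40.9% and 18.1% of all tested genes. Their median log2 change was 1.06. By median ratios 12 rose and 6 fell, beside 33% and 30.3% of all tested genes. With equal totals, also without the top 20 genes or Lars2, and on the upper quartile 11 rose and 8 fell. All tested genes then gave 19.5% to 26.6% higher and 42.3% to 57.7% lower calls. Scaled on T cell identity genes all 22 rose, near the 95% of all tested genes. The median was positive under all 7 scalings, at 0.14 to 2.69. Atf4, the transcription factor gene of the response, was at 22.4, 25.2 and 27.2 TPM in spleen and at 214 and 208 TPM in tumor (log2 change 3.04 ± 0.21, limma adjusted p = 5.1e-18). Asns, the asparagine synthetase gene and a textbook ATF4 target, was at 1.12, 0.675 and 0.489 TPM in spleen and at 8.87 and 5.55 TPM in tumor (2.21 ± 0.23, limma adjusted p = 5.0e-12). The tumor values of both genes were several-fold above those of spleen, although Asns stayed within or near the background level. Cebpb, the gene of a transcription factor that also acts in myeloid cells, rose from 2.53 ± 0.52 to 131 ± 11.6 TPM, and Nupr1, a stress-induced gene, from 1.07 ± 0.72 to 71.3 ± 0.17 TPM. Slc1a5, a glutamine transporter gene, fell from 30.4 ± 3.76 to 19.0 ± 2.04 TPM. In these libraries the macrophage marker sum was 5702 to 6242 TPM, and its part in the rises was not tested.

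The promoters were searched for TGATGNAA on both strands, the core of the composite element through which ATF4 and C/EBP factors act on amino acid response genes. The windows run from 250 bases before to 50 bases after each RefSeq start (GRCm38.p6), and 13 cytosolic and 12 mitochondrial genes had one. The letters occurred in 5 of the 13 cytosolic genes (38.5%), in 0 of the 12 mitochondrial genes and in 4.51% of the 27025 genes of the table. The cytosolic genes with a match were Aars, Gars, Iars, Tars and Yars. The stretches around the 3 genes with a match before the start are shown because they hold matches to the same motif beside genes that moved differently. The match is in capitals, and its letters are the same in Aars and Tars and differ in Gars.
Aars: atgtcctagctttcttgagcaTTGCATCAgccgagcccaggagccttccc
Gars: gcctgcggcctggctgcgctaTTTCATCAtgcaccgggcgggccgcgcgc
Tars: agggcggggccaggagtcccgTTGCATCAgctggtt
They read 5′ to 3′ on the strand of the gene, and in each the match is on the opposite strand. They lie at chr8:111033709-111033758 on the plus strand, chr6:55037950-55037999 on the plus strand and chr15:11399659-11399694 on the minus strand. The matches begin 112, 30 and 15 bases before the start, and Aars has a second match after its start. Of the 5 genes with a match, Aars and Gars rose with log2 changes of 1.49 and 0.65, Iars fell by 0.55 on the log2 scale, and Tars and Yars were not called, at -0.12 and -0.34. A match describes the letters and is not evidence of binding. Genes without a window in the table included Cars, Hars, Lars, Nars, Rars, Vars, Wars, Hars2 and Pars2.

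Other genes that act on tRNA or in mitochondrial translation are read beside the 40.9% higher and 18.1% lower calls over all tested genes. Of 11 synthetase-like, editing, selenocysteine, amidotransferase and formyltransferase genes 0 rose and 4 fell (median -0.23). Pstk, the kinase gene of selenocysteine tRNA charging, was at 16.5, 25.96 and 19.1 TPM in spleen and at 6.20 and 6.72 TPM in tumor (log2 change -1.50 ± 0.21, limma adjusted p = 3.5e-08). Tarsl2, a threonyl synthetase-like gene, fell from 3.84 ± 0.71 to 1.95 ± 0.38 TPM. The other 2 falls were those of Qrsl1 and Mtfmt, whose products form glutaminyl-tRNA and formylmethionyl-tRNA in mitochondria, with log2 changes of -0.62 and -0.54. Of 10 mitochondrial translation factor genes 2 rose and 2 fell (median -0.20). Guf1, a mitochondrial elongation factor gene, fell from 16.2 ± 1.66 to 8.55 ± 1.28 TPM and Mrrf, the ribosome recycling factor gene, from 6.398 ± 0.49 to 3.69 ± 1.87 TPM. Mtrf1, a release factor gene, rose from 1.12 ± 0.18 to 2.20 ± 0.32 TPM, within the background level. Of 19 tRNA maturation genes 4 rose and 4 fell (median -0.09). Trmu, which modifies mitochondrial tRNA, was at 9.86, 14.9 and 10.1 TPM in spleen and at 4.64 and 2.87 TPM in tumor (-1.41 ± 0.22, limma adjusted p = 2.3e-07). Mto1, whose product also modifies mitochondrial tRNA, went the other way, at 9.73, 12.4 and 12.2 TPM in spleen and at 23.3 and 28.5 TPM in tumor (1.11 ± 0.21, limma adjusted p = 1.1e-05). Tsen15 fell from 8.59 ± 1.54 to 5.29 ± 0.19 TPM and Tsen34 rose from 1.76 ± 0.32 to 5.06 ± 0.56 TPM, both being subunit genes of the tRNA splicing endonuclease. Within the olfactory background in all 5 libraries lay Tarsl2, Qrsl1, Mtfmt, Mrrf, Mtrf1 and Tsen34. Trmu and Tsen15 lay above it in spleen replicate 2 only, and Pstk lay within it in both tumor libraries. Guf1 and Mto1 lay within it in some libraries. With equal totals 10 of the 11, 8 of the 10 and 15 of the 19 genes of these lists fell and 0 rose, beside 51.4% lower and 20.4% higher calls over all tested genes. Scaled on T cell identity genes 10, 10 and 18 rose, near the 95% of all tested genes.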

How the data were processed

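RNA of 5 libraries (total RNA, ribosomal RNA depletion, stranded kit, 75 bp paired-end reads, as the labels' protocols state) was used. The authors deposited 1 value per gene symbol and library, taken as TPM because the values are not whole and sum to less than the TPM scale. Kallisto, DESeq2 and mm10 are named, per the submitters' processing notes, without versions or roles. Depth is not given, and TPM keep none. All 35 members passed the filter of a mean of at least 1 TPM (12979 genes). log2(TPM + 1) was fitted in R 4.3.3 by limma 3.58.1. The model held tissue alone, with the variance following a trend on the mean. Tests were two-sided, and p-values were adjusted by Benjamini-Hochberg over every gene tested. Residual degrees of freedom were 3 and prior degrees 44.1, so each error rests mostly on genes of similar level. The code of the test was checked on simulated data with few changed genes and no shift between libraries. That check does not cover the choice of scaling. The 19 alternatives were 6 scalings, pseudocounts of 0.1 and 10, filters, no trend, a threshold of 0.01, a test against 1.5-fold, a block on replicate number and the omission of each library in turn. T cell identity scaling used the geometric mean of 12 genes. Named were the 5 largest cytosolic and up to 3 largest mitochondrial rises, every fall, Gars, Kars and Wars, the 3 largest gaps and the smallest among pairs, and from other lists the 2 largest calls in the direction of most calls and 1 opposite. With 4 calls each way among tRNA maturation genes, Mto1 was added after its values were seen. Other values are named for context, chosen after they were seen. Members and lists were chosen with earlier results of these data known. Coordinates are from GENCODE M21 (GRCm38), the build equal to mm10, and promoters from RefSeq (GRCm38.p6). The values of 1 mitochondrial member enter counts, sums and medians but are not reported here.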

Additional observations from a re-analysis of the deposited data

How the results depend on the processing

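Rars, Nars and Aars were called higher under each of the 19 alternatives. Cytosolic genes called higher numbered 9 in the deposited TPM, 3 with equal totals, on the upper quartile, with equal totals without the top 20 genes, without Lars2 and against 1.5-fold, and 20 on T cell identity genes. Cytosolic genes called lower numbered 2. They numbered 6 by median ratios, 11 with equal totals, 9 on the upper quartile, 13 with equal totals without the top 20 genes or without Lars2, 1 with no filter, and 0 on T cell identity genes, at a threshold of 0.01 and against 1.5-fold. The 1 mitochondrial gene called higher was lost (0) by median ratios, with equal totals in all 3 forms, on the upper quartile, at 0.01, against 1.5-fold and with the replicate block, and 13 were called on T cell identity genes. Mitochondrial genes called lower numbered 5. They numbered 10 by median ratios, 14 with equal totals and without the top 20 genes, 15 without Lars2, 12 on the upper quartile, 3 at a mean of at least 5 TPM, where 8 were tested, and 0 on T cell identity genes and against 1.5-fold. Shares over all tested genes, higher then lower, were 40.9% and 18.1% in the deposited TPM and 33% and 30.3% by median ratios. With equal totals they were 20.4% and 51.4%, without the top 20 genes 19.8% and 56.9% and without Lars2 19.5% and 57.7%. The upper quartile gave 26.6% and 42.3%, a threshold of 0.01 gave 36.1% and 12%, and 1.5-fold gave 25% and 4.49%. No filter gave 26.1% and 10%, a mean of 5 TPM 51.4% and 17.1%, and T cell identity genes 95% and 0.878%. The cytosolic minus mitochondrial median was 0.73, and 0.99 on T cell identity genes and 0.39 with a pseudocount of 10. Leaving out each spleen library in turn gave 8 to 10 cytosolic rises, 1 to 3 cytosolic falls, 0 to 2 mitochondrial rises and 5 to 6 mitochondrial falls. All tested genes then gave 36.1% to 45.1% higher and 13.1% to 20% lower calls. Without either tumor library fewer cytosolic genes, and fewer of all tested genes, were called in each direction. Over the omission of each library the cytosolic minus mitochondrial median ran from 0.66 to 0.84. Same-numbered libraries correlated at 0.20 and 0.07 in their deviations from the tissue mean, and differently numbered ones at -0.20 and -0.07. With 2 tumor libraries the tumor deviations mirror each other, which fixes this opposite sign. The check therefore cannot tell whether the numbers mark pairs, and the main fit did not take them as pairs. With the replicate block, where spleen replicate 1 has its own level, 8 cytosolic genes rose and 2 fell. In that fit 0 mitochondrial genes rose and 6 fell, beside 37.6% and 15.5% of all tested genes, and the difference was 0.72.

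Called changes that turned sign were these. With equal totals they were Cars -0.0910, Eprs -0.18, Fars2 -0.25, Gars -0.24, Hars -0.25 and Kars -0.10. Without the top 20 genes they were Cars -0.17, Eprs -0.26, Fars2 -0.32, Gars -0.32, Hars -0.33, Kars -0.18 and Wars -0.0244. Without Lars2 they were Cars -0.19, Eprs -0.28, Fars2 -0.34, Gars -0.34, Hars -0.35, Kars -0.20 and Wars -0.0456. On T cell identity genes they were Ears2 0.30, Iars 1.43, Pars2 0.31, Rars2 1.29, Tars2 0.99, Vars 1.40 and Vars2 1.03. The scalings move all genes together by construction; other causes were not tested. Depth is unknown, and the 9 mitochondrial genes within the olfactory background are the least certain.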
